A study of Sus scrofa with 9 samples.

Results

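ABC transporters are membrane pumps that use ATP to move drugs, lipids or conjugated metabolites across a membrane, and 8 of them were followed here in boar testis: ABCG2, ABCA1, ABCB1, ABCB4, ABCC1, ABCC2, ABCC4 and ABCG1. ABCG2 stood at the head of the group because its probes were higher in the oligospermic than in the control arrays of these same data, and the other 7 were taken as its relatives. Probes were assigned by gene name or by the symbol in their description, which gave 13 of the 60889 probes on the array, from 4 of the 8 genes. No probe matched ABCB1, ABCC1, ABCC4 or ABCG1, and these were not analysed here. Levels were available for 9 of the 13 probes, 4 of ABCG2, 3 of ABCA1 and 2 of ABCB4, whereas the 4 probes of ABCC2 were not among the 38759 probes with a normalized value.

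RNA of testicular biopsies was hybridized to 9 arrays, with 3 arrays in each of 3 groups. The control group had normal semen and, per the study's methods, came from fertile boars with a normal karyotype (2n = 38, XY). The oligospermic group had too few spermatozoa in its semen and the same normal karyotype. The t(1;14) group was oligo-astheno-teratospermic, with sperm that were also poorly motile and misshapen, and came from a Landrace × Duroc boar with a balanced reciprocal translocation between chromosomes 1 and 14. The 3 t(1;14) arrays held separate biopsies of that boar. The sources used here do not say which boar each control array held, nor whether the oligospermic arrays came from more than 1 animal, so the tests measure the spread between arrays and not between animals. Whole tissue was measured, in which fewer cells of a type and less RNA per cell cannot be told apart.

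ABCG2, the breast cancer resistance protein, pumps many drugs, urate and sulfated steroids out of cells and works as a dimer. In the testis it is known from blood vessels and from the cells around the seminiferous tubules, where it limits the entry of foreign compounds. ABCA1 hands cholesterol and phospholipid to apolipoprotein A-I and is a classical target of the liver X receptors. ABCB4 flips phosphatidylcholine across the membrane, and ABCC2 exports glutathione and glucuronide conjugates. In the pig RefSeq annotation, ABCG2 lies on chromosome 8, ABCA1 on chromosome 1, ABCB4 on chromosome 9 and ABCC2 on chromosome 14, so that ABCA1 and ABCC2 lie on the chromosomes of the rearrangement.

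Each probe is an oligonucleotide of 60 bases, and a level belongs to that stretch of the transcript. The ABCG2 probes are printed in full because they are separate readings of the same transcript, named by their start in it.
ABCG2 432: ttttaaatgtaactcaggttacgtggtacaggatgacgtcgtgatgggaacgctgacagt
ABCG2 832: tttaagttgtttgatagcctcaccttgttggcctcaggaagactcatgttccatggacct
ABCG2 1201: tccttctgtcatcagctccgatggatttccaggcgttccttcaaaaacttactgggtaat
ABCG2 1999: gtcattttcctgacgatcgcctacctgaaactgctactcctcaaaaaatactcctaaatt
None of the 4 overlaps another. The ABCB4 probes do overlap and are shown for that reason, with the longest stretch they share, 10 bases, in capitals.
ABCB4 3445: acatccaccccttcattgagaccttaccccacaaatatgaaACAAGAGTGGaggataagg
ABCB4 3486: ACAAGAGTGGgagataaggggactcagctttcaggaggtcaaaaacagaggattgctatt
Their starts lie 41 bases apart, and 2 of the 19 bases of overlap differ between the probes. The ABCA1 probes start at 2122, 2564 and 3070, and the first of them is shown as an example.
ABCA1 2122: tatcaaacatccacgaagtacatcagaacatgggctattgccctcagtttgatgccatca

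ABCG2 was higher in all 3 oligospermic arrays than in any of the other 6, with every one of its 4 probes. At the probe starting at 1999, which represents the gene as the one with its highest mean level, the level was 9.88, 9.77 and 9.97 in the controls, 12.24, 12.25 and 12.36 in the oligospermic arrays, and 10.16, 10.44 and 10.16 in the t(1;14) arrays. All levels are log2 values after quantile normalization over the 9 arrays, so that a step of 1 is a doubling. The oligospermic arrays formed a group of their own, and the t(1;14) arrays lay just above the controls without overlap.

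The other ABCG2 probes also set the oligospermic arrays apart. At 1201 the controls read 6.93, 6.67 and 6.96, the oligospermic arrays 9.48, 9.33 and 9.52, and the t(1;14) arrays 7.28, 7.40 and 7.08. At 832 the levels were 5.16, 5.29 and 5.69 in control, 7.93, 8.02 and 8.02 in oligospermic, and 5.70, 5.31 and 5.36 in t(1;14) arrays. At this probe the t(1;14) and control arrays overlapped. At 432 the controls read 5.41, 5.15 and 5.41, the oligospermic arrays 7.56, 7.38 and 7.64, and the t(1;14) arrays 5.48, 6.01 and 5.64, again with the t(1;14) arrays above the controls. A second spot with the sequence of the 1999 probe read within 0.19 of it on every array, by 0.08 on average.

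**Figure D1:**
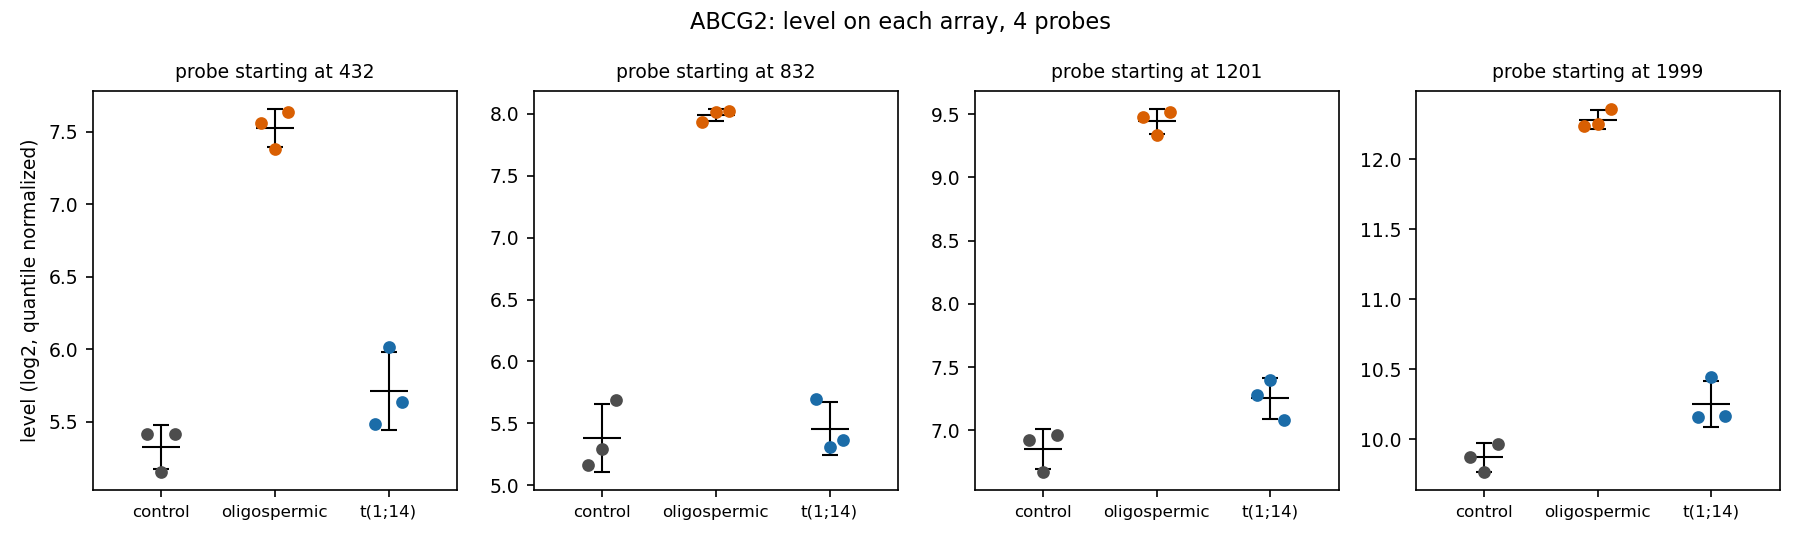
Level of ABCG2 on each array for its 4 probes, named by start position. The vertical axis is the log2 level after quantile normalization and has its own range in each panel, points are the 3 arrays of a group, and bars are the mean and SD. The oligospermic arrays lie above all others in each panel, at 12.24 to 12.36 for the probe starting at 1999 against 9.77 to 10.44 for the other 6 arrays.

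The oligospermic mean exceeded the control mean by 2.20 at 432, 2.61 at 832, 2.59 at 1201 and 2.41 at 1999 on the log2 scale, or 4.59- to 6.10-fold. Since ABCG2 was selected on this contrast, these values are a description and carry no test. Of the 37707 probes that could be tested in it, 0.276% were higher by 2 or more and 8.14% lay above the controls without overlap. The 4 ABCG2 probes ranked between 54 and 82 from the top of that list by size of difference. On each of the 3 slides, which held 1 array of each group, the oligospermic array exceeded the control by 2.36, 2.48 and 2.39 at the 1999 probe. With another background correction, normexp on the mean spot signal, the difference at 432 shrank to 1.26 and that at 832 to 1.59, so that 2 of the 4 probes stayed at 2 or more.

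In the t(1;14) boar ABCG2 stood near the controls. The t(1;14) mean exceeded the control mean by 0.38 ± 0.13 (SE) at 1999, 0.40 ± 0.14 at 1201, 0.38 ± 0.17 at 432 and 0.07 ± 0.19 at 832. None of these 4 differences passed the limit, an adjusted p of 0.01 in limma over all probes tested, with adjusted p between 0.0466 and 0.759, and 2 of the 4 had an unadjusted p under 0.05, as had 59.4% of all probes tested. Leaving out t(1;14) array 2 lowered the difference at 432 to 0.23, and leaving out 1 array moved that at 832 between -0.05 and 0.23. Of the 38349 probes tested in this comparison 33.2% passed, 16.8% higher and 16.4% lower, and 36.5% lay above the controls without overlap, as 3 of the 4 ABCG2 probes did. The median difference over all probes was 0.15. This comparison shares its control arrays with the one on which ABCG2 was selected. Against the oligospermic arrays the t(1;14) means were lower by 1.82 to 2.53 at the 4 probes, with no overlap, as 30.7% of the 38287 probes tested were. That too is a description, because the oligospermic values chose the gene.

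In the order of group means ABCG2 was therefore highest in oligospermic arrays, then in t(1;14), then in control. At 1999 the means were 12.28 ± 0.07 (SD, n = 3), 10.25 ± 0.16 and 9.87 ± 0.10. The last 2 groups in this order did not differ beyond the test's limit.

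The genes whose levels followed ABCG2 most closely over the 9 arrays were SLA-6, TACO1, MESP2, GABPB2 and SRSF2. Their Pearson correlations with the 1999 probe were 0.982, 0.979, 0.956, 0.943 and 0.942. Over the 6 arrays that were not oligospermic the values were 0.897, 0.612, 0.696, 0.665 and 0.0973, so that part of the likeness was the step between the oligospermic and the other arrays. SLA-6, an MHC class I gene whose probe may also read its close relatives, was well above background on the 3 oligospermic arrays and on 0 of the other 6, so that its 0.897 rests on readings at background. TACO1, a translational activator of mitochondrial cytochrome c oxidase, was 6.78 in control, 8.17 in oligospermic and 6.93 in t(1;14) arrays on average. The other 3 genes were higher in the oligospermic than in the control arrays by only 0.23 to 0.45. The ABCG2 probes at 432, 832 and 1201 correlated with that at 1999 at 0.996, 0.979 and 0.998 over the 9 arrays, and at 0.956, 0.135 and 0.945 over the 6 that were not oligospermic.

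ABCA1 took a different order, with t(1;14) highest and oligospermic lowest. At 3070, the probe that represents the gene, the levels were 11.90, 11.25 and 11.91 in control, 11.55, 11.50 and 11.00 in oligospermic, and 12.44, 12.45 and 12.41 in t(1;14) arrays. The t(1;14) arrays were above all others, and the control and oligospermic arrays overlapped. At 2564 the levels were 9.37, 8.75 and 9.37 in control, 9.06, 8.94 and 8.42 in oligospermic, and 9.62, 9.56 and 9.62 in t(1;14) arrays. At 2122 they were 7.85, 7.11 and 7.83 in control, 7.38, 7.19 and 6.82 in oligospermic, and 7.95, 7.80 and 7.78 in t(1;14) arrays, and here t(1;14) and control overlapped. Control array 2 was the lowest control at all 3 probes.

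Between t(1;14) and oligospermic arrays ABCA1 rose at all 3 probes. The t(1;14) mean was higher by 1.08 ± 0.16 (SE) at 3070 (adjusted p = 0.00108, limma), by 0.80 ± 0.17 at 2564 (adjusted p = 0.00599, limma) and by 0.72 ± 0.16 at 2122 (adjusted p = 0.0064, limma), or 1.64- to 2.11-fold. In this comparison 28.5% of all probes tested rose and 23% fell, and 41.5% lay above the oligospermic arrays without overlap. On each slide the t(1;14) array exceeded the oligospermic array at all 3 probes, by 0.89, 0.91 and 1.44 at 3070. With slide as a block, the adjusted p was 0.00154 at 3070, 0.00644 at 2564 and 0.0101 at 2122, so that 2 of 3 probes passed. Leaving out t(1;14) array 1, 2 or 3 or oligospermic array 2 left 1 probe past the limit each time, that at 3070.

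Against the controls ABCA1 did not pass. The t(1;14) mean was higher by 0.75 ± 0.20 at 3070 (adjusted p = 0.0200, limma), by 0.44 ± 0.19 at 2564 (adjusted p = 0.0945, limma) and by 0.25 ± 0.22 at 2122 (adjusted p = 0.366, limma). Without control array 2, the lowest control, the differences were 0.53 at 3070, 0.23 at 2564 and 0.0087 at 2122. At 3070 the adjusted p became 0.00982 when the prior variance followed the intensity. The oligospermic mean lay below the control mean by 0.33 to 0.46, a description with overlap at all 3 probes. Within slides the sign of that difference was not constant: at 3070 it was -0.34, 0.25 and -0.91.

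ABCB4 differed little between groups. At 3445 the levels were 7.07, 7.72 and 7.40 in control, 6.88, 7.03 and 6.65 in oligospermic, and 6.98, 6.96 and 6.94 in t(1;14) arrays. All 6 oligospermic and t(1;14) arrays lay below the controls here, as did 26.5% of all tested probes for t(1;14) and 7.81% for oligospermic. At 3486, the overlapping probe, the levels were 7.23, 7.50 and 6.93 in control, 7.25, 6.91 and 6.81 in oligospermic, and 6.95, 7.59 and 7.07 in t(1;14) arrays, and all groups overlapped.

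The t(1;14) mean was below control by 0.44 ± 0.18 at 3445 (adjusted p = 0.0774, limma) and differed by -0.02 ± 0.22 at 3486 (adjusted p = 0.956, limma). Without control array 2, its highest control, the difference at 3445 was -0.28, and at 3486 leaving out 1 array gave -0.21 to 0.13. Against oligospermic arrays the differences were 0.11 ± 0.12 and 0.21 ± 0.20 (adjusted p = 0.443 and 0.371, limma). The oligospermic means were lower than the control means by 0.55 and 0.23, given without a test. A second spot with the sequence of the 3445 probe read within 0.16 of it on every array, and there both the oligospermic and the t(1;14) arrays overlapped the controls.

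**Figure D2:**
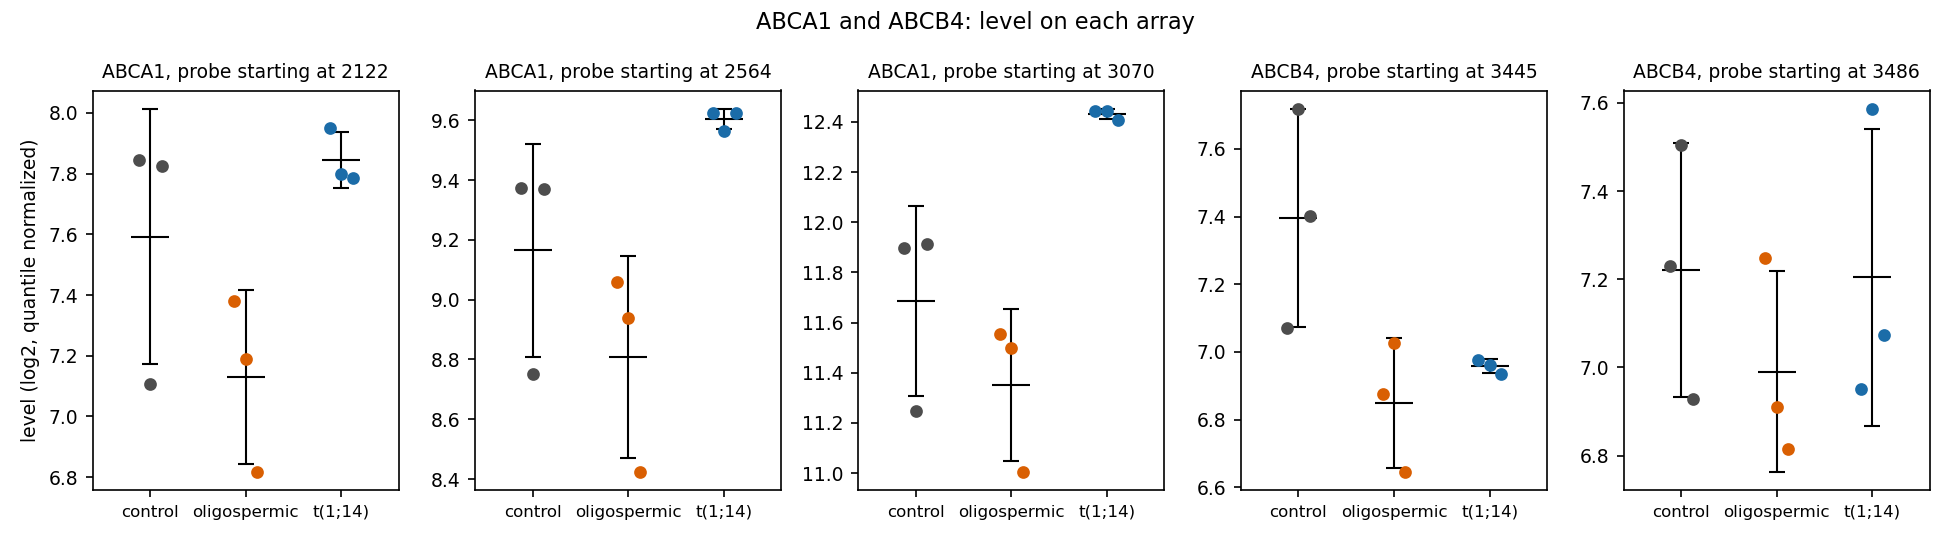
Level of the 3 ABCA1 and 2 ABCB4 probes on each array. The vertical axis is the log2 level after quantile normalization and has its own range in each panel, points are the 3 arrays of a group, and bars are the mean and SD. For ABCA1 the t(1;14) arrays lie above the oligospermic arrays in all 3 panels, at 12.41 to 12.45 against 11.00 to 11.55 for the probe starting at 3070, and the ABCB4 groups lie close together.

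ABCC2 was at the background of the array. The probe starting at 741 was well above background on 2 of the 9 arrays, control array 2 with an intensity of 16.9 and t(1;14) array 1 with 14.8. The probes at 3536, 3956 and 4851 were so on 0 of 9, and a second spot with the sequence of the 3956 probe was so on t(1;14) array 3 alone, with 10.5. The lowest intensity that the scanner software placed well above background lay between 8.81 and 21.1 on the 9 arrays. No fold change was computed for this gene, since in each group most readings were not well above background.

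Beyond these genes, 40 further members of the ABC family were looked up, of which 19 had a probe and 15 were tested. Between t(1;14) and control 3 rose, 2 fell and 10 did not pass, with a median difference of 0.17 beside 0.15 for all probes. As 33.2% of all probes passed in this comparison, 5 of 15 genes is near the background and no result about the family. ABCB6, linked to porphyrin transport, rose by 0.79 ± 0.11 (adjusted p = 0.00156, limma). ABCE1, a factor that recycles ribosomes, rose by 0.74 ± 0.13 (adjusted p = 0.00483, limma).

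The 2 that fell were ABCD2 and ABCA4. ABCD2, a peroxisomal importer of very long-chain fatty acids, was 7.86, 8.31 and 8.51 in control, 8.61, 8.74 and 8.92 in oligospermic and 6.95, 7.18 and 7.04 in t(1;14) arrays. It changed by -1.17 ± 0.19 (adjusted p = 0.00294, limma). ABCA4, the retinoid flippase of photoreceptors, changed by -0.70 ± 0.14 (adjusted p = 0.00700, limma). With slide as a block, 3 rose and 0 fell. Leaving out t(1;14) array 1 or 3 gave 1 that rose and 0 that fell, and none of ABCB6, ABCE1, ABCD2 and ABCA4 passed. ABCD2 did not pass without control array 2 or with slide as a block. ABCA4 did not pass without control array 1, 2 or 3, with slide as a block or with scaling by the 75th percentile, and ABCE1 did not pass without control array 1 or 3. Leaving out control array 1 or 2 gave 1 gene that fell. No other ABC gene rose or fell between oligospermic and control arrays in limma, where 0.069% of probes passed, and 2 of the 15 had an unadjusted p under 0.05, beside 9.99% of all probes. Between t(1;14) and oligospermic arrays 4 rose and 2 fell, beside 51.6% of all probes that passed.

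**Figure D3:**
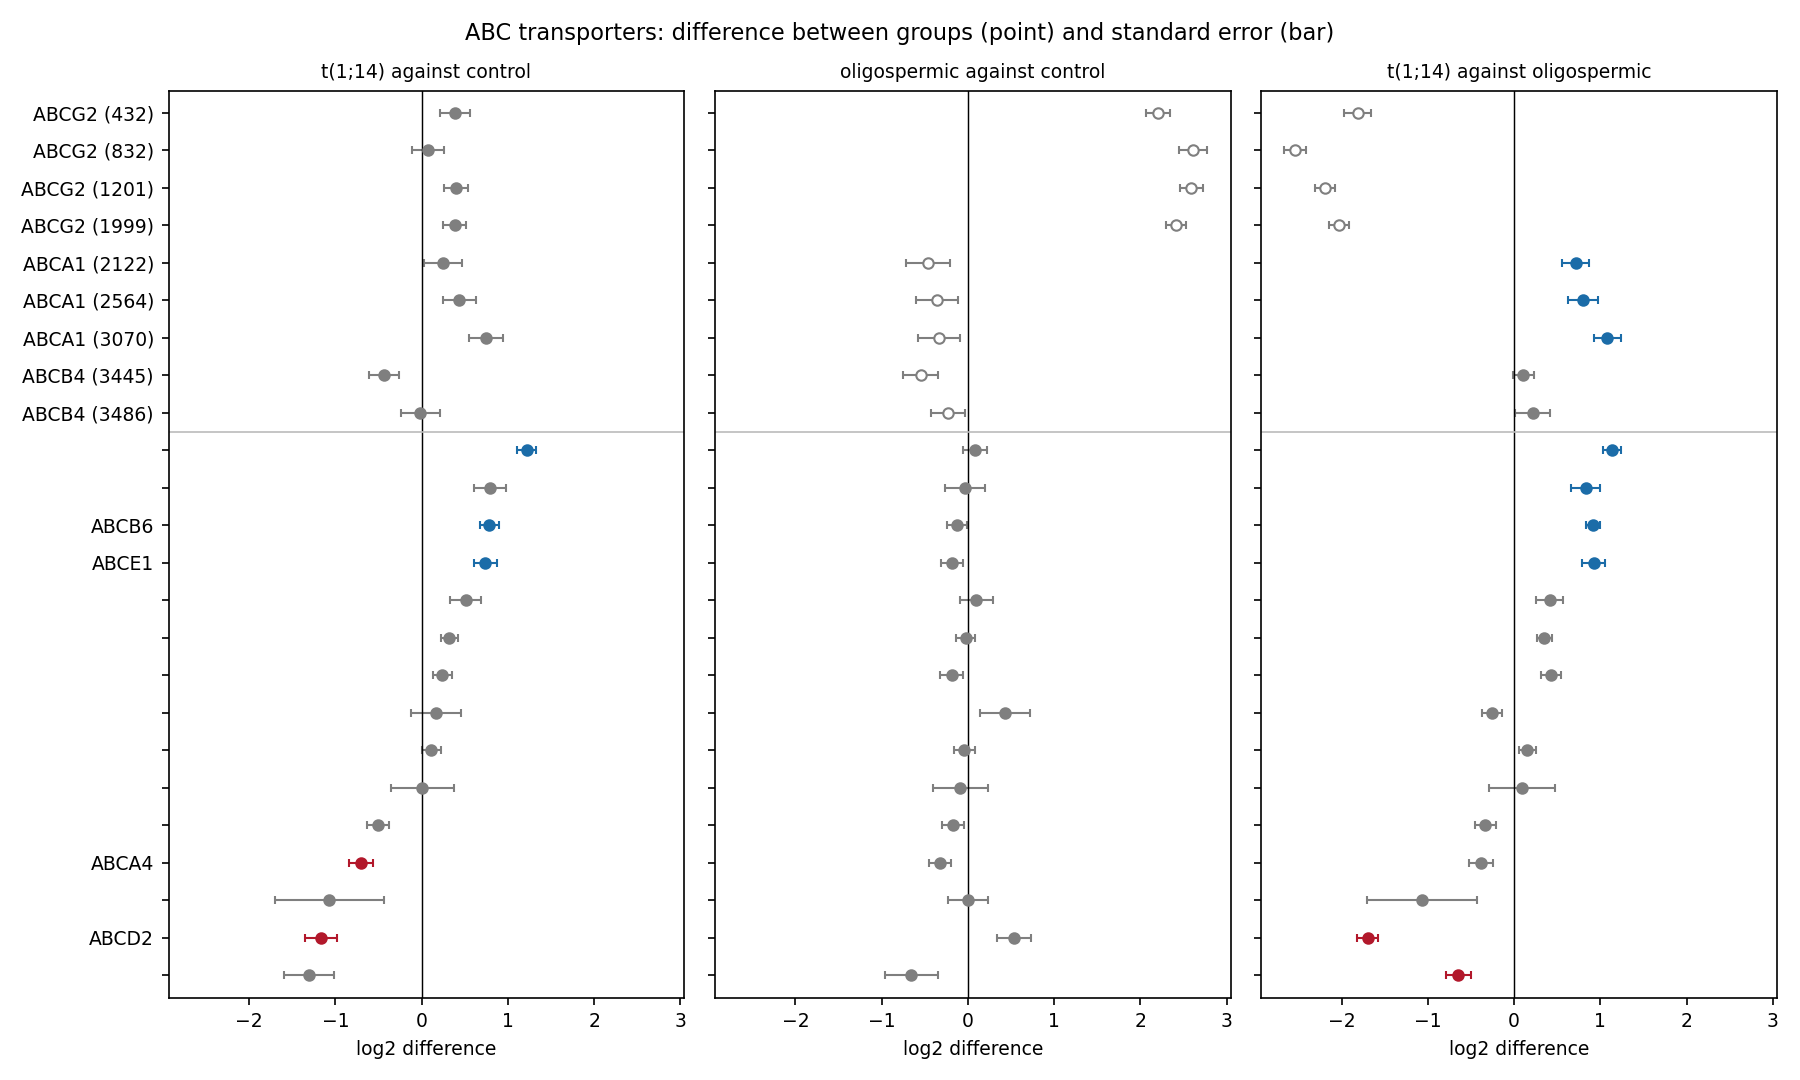
Difference in log2 level between groups for the 9 probes of ABCG2, ABCA1 and ABCB4 (above the line, start position in brackets) and for 15 other ABC genes (below it, labelled where the text names them), with the SE as a bar. Blue points rose and red points fell at an adjusted p of at most 0.01 in limma, grey points did not pass, and open points carry no test. ABCG2 stands at 2.20 to 2.61 in oligospermic against control, where none of the genes below the line passed.

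The genes of sterol handling, to which ABCA1 belongs, were read next. Of 21 tested genes of sterol regulation and cholesterol handling, 8 rose, 2 fell and 11 did not pass against control, where 16.8% of all probes rose and 16.4% fell, and the median difference was 0.69 beside 0.15 for all probes. SCARB1, the HDL receptor that brings cholesterol into steroid-making cells, rose by 2.31 ± 0.16 (adjusted p = 0.000143, limma). SOAT1, which esterifies cholesterol for storage, rose by 1.82 ± 0.11. RXRG, a retinoid X receptor picked here after its values were seen, changed by -1.68 ± 0.19 (adjusted p = 0.000818, limma), and 2 of its 3 tested probes passed. Leaving out t(1;14) array 1, 2 or 3 lowered the count that rose to 5. In the comparison of oligospermic with control, 0 of the 21 rose or fell in limma, and 5 had an unadjusted p under 0.05, beside 9.99% of all probes.

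Of 12 tested genes on the list of conjugation enzymes, 5 rose and 0 fell against control, where 16.8% of all probes rose, with a median difference of 0.70. Most of them make the glutathione and sulfate conjugates that ABCC and ABCG pumps export. GSS and GCLM help to make glutathione itself, and GSS was among the 5 that rose. SULT2A1, a sulfotransferase of hydroxysteroids, rose by 2.47 ± 0.24 (adjusted p = 0.000424, limma). The glutathione transferases GSTO1 and GSTA2 rose by 2.30 ± 0.15 and 2.25 ± 0.19, and the microsomal MGST1 by 1.27 ± 0.13. GSTA2 has close copies among the alpha class transferases, and its probes may share signal with them. In oligospermic against control 0 of the 12 passed in limma, and 3 had an unadjusted p under 0.05, beside the same 9.99%.

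Of 12 tested genes of xenobiotic sensing, receptors and factors that switch on drug-handling genes and some of their target enzymes, 1 rose and 3 fell against control, with a median difference of -0.20. These 4 of 12 genes are near the background of 33.2% of all probes. PPARG, a nuclear receptor known to raise ABCG2 in some cells, changed by -1.78 ± 0.38 (adjusted p = 0.00864, limma), with 1 of its 3 probes past the limit, and it did not pass without control array 2, without any 1 of the t(1;14) arrays, with slide as a block, with scaling by the 75th percentile, or with normexp. EPAS1 and ARNT, partners in the hypoxia response, changed by -1.13 ± 0.16 and -0.89 ± 0.11. HIF1A, their relative, rose by 0.88 ± 0.11. Leaving out control array 1, 2 or 3 gave 2 genes that rose, and leaving out t(1;14) array 3 gave 1 that fell. Of the 2 to 4 probes of these genes, 1 of 2 passed for EPAS1, 2 of 4 for ARNT and 1 of 2 for HIF1A. In oligospermic against control 0 of the 12 passed in limma, and 5 had an unadjusted p under 0.05, again beside 9.99% of all probes. Of 7 tested drug uptake carriers, 0 rose or fell in limma in t(1;14) against control, and 0 had an unadjusted p under 0.05, beside 59.4% of all probes.

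**Figure D4:**
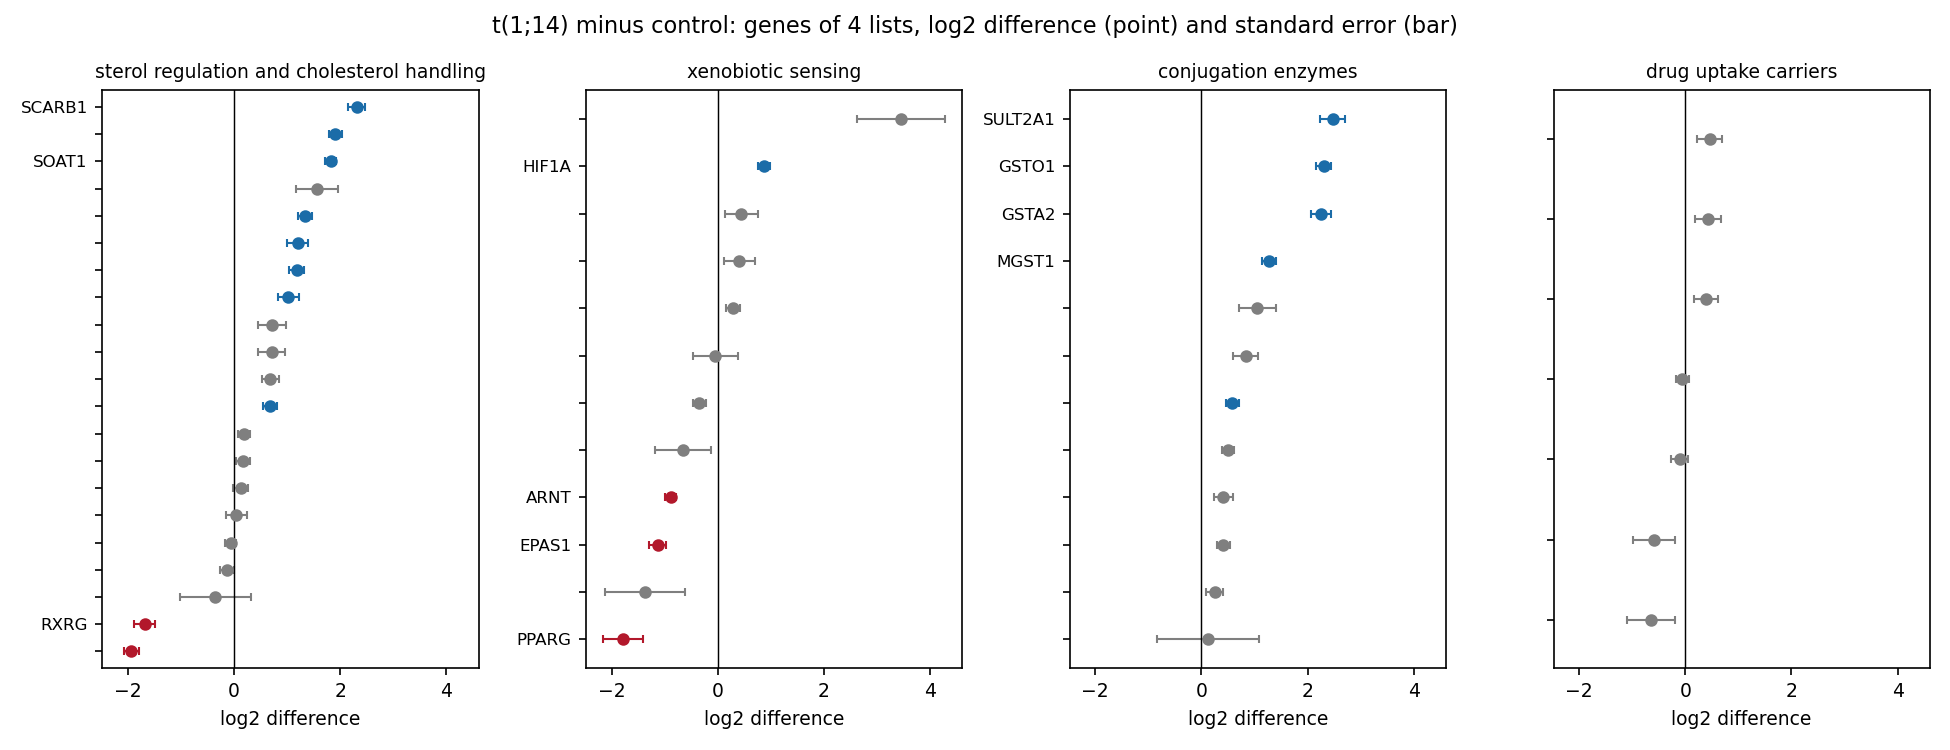
Difference in log2 level between t(1;14) and control for the tested genes of 4 lists, labelled where the text names them, each gene by its probe of highest mean level, with the SE as a bar. Blue points rose and red points fell at an adjusted p of at most 0.01 in limma, and grey points did not pass. SCARB1 at 2.31 and SULT2A1 at 2.47 rose, while none of the 7 drug uptake carriers passed.

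Markers of testicular cell types were tested for 44 genes in 8 lists. Between t(1;14) and control 15 rose and 8 fell, beside 33.2% of all probes that passed. Between oligospermic and control 0 rose or fell in limma and 7 had an unadjusted p under 0.05, where 9.99% of all probes had such a p and 0.069% of all probes passed. Of the 8 tested Leydig cell markers 7 rose, and the log2 of their summed level was 16.22 to 16.24 in control, 15.93 to 16.24 in oligospermic and 17.20 to 17.27 in t(1;14) arrays. Of the 6 tested spermatid markers 4 fell, with summed levels of 17.53 to 17.74, 17.54 to 17.74 and 16.69 to 16.82. The probes of PRM2 and TNP2 were saturated on 7 and 4 of the 9 arrays and that of the Leydig marker INSL3 on 3, so that these sums can understate a difference. PRM1 had no normalized value and TNP1 no probe. Of the 4 tested spermatocyte markers 2 rose and 1 fell. Their summed levels were 12.77 to 13.05 in control, 12.46 to 12.73 in oligospermic and 13.44 to 13.49 in t(1;14) arrays. SPO11, named here after its values were seen, was lower in oligospermic than in control by 2.13 ± 0.23 (adjusted p = 0.0345, limma). It did not pass, and its arrays did not overlap, as 7.81% of all probes lay below the controls. SYCP1, SYCP3, SYCP2, DMC1, MLH3 and MEIOB had no probe. The part of these shifts in the ABCG2, ABCA1, sterol and conjugation results was not tested.

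For ABCG2 and ABCA1 the endothelial, peritubular myoid and macrophage lists were also read. The 7 endothelial markers summed to 9.40 to 10.15 in control and to 10.58 to 10.89 in t(1;14) arrays. The oligospermic arrays, where ABCG2 was high, started at 9.74 and all lay within the range of the controls. The endothelial markers TIE1, FLT1 and EMCN and the myoid markers MYH11 and TAGLN had no probe. Of the macrophage and leukocyte list 2 genes of 9 were tested, and they summed to 6.53 to 7.15, 6.22 to 6.49 and 7.36 to 7.69 in control, oligospermic and t(1;14) arrays. They were highest in t(1;14) and lowest in oligospermic as for ABCA1, an order that was not particular to this list. The spermatocyte sums took it without overlap, and the spermatogonium and Leydig sums were also highest in t(1;14), with oligospermic and control overlapping. CD68, CSF1R, PTPRC and ITGAM had no probe, CD3E, CD4 and CD8A had no normalized value, and the part of these lists in the ABCA1 result was not tested.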

How the data were processed

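Total RNA of 9 testicular biopsies was labelled with cyanine 3 and hybridized to a custom porcine Agilent array. The authors deposited each spot's intensity, background-subtracted by the scanner software and not normalized between arrays, and a table of log2 values for 38759 probes. Sorted, the columns of that table differ by at most 0.00163, so the authors' log2 values are quantile normalized over all 9 arrays, and they served here as levels. Per the labels, limma was used, and no genome build is given for the expression files. Between 37087 and 40632 probes per array were well above background. Precision is limited by having 3 arrays a group.

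Testing required a probe well above background and not marked as an outlier on 2 or more arrays in 1 of the groups compared. Linear models were fitted in limma 3.58.1 (R 4.3.3) to the 6 arrays compared, with p adjusted by the Benjamini-Hochberg method over all probes tested. A probe rose or fell at an adjusted p of at most 0.01, as in the study's methods. The fold limit of those methods, 2 on the log2 scale, was used only to count ABCG2 probes. A gene was represented by its probe of highest mean level. Named were all 8 transporters, up to 10 other ABC genes, up to 4 genes of each further list with the largest differences that passed in t(1;14) against control, and the 5 genes most correlated with ABCG2. Some genes that this rule names are not reported here. Members and lists were chosen with earlier results of these data known. Chromosomes are those of RefSeq Sscrofa11.1. Simulated data were used to check the code, with pass limits loosened after the first outputs were seen, and say nothing firm about power.

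The 3 groups were spread evenly over 3 slides. In oligospermic against control the replicate number equals the slide. Same-numbered arrays deviated together from their group means, with correlations of 0.495, 0.120 and 0.109, where pairing by number and by slide cannot be told apart. The alternatives were scanner intensities under 4 normalizations, other filters, a block for slide or for replicate number, a single model for the 9 arrays, an intensity trend in the prior variance, and leaving out each array.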

Additional observations from a re-analysis of the deposited data

How the results depend on the processing

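With 3 arrays a group from few animals, effects of karyotype, semen class and single animals cannot be told apart. ABCG2 had all 3 oligospermic arrays above the other 6 at 4 of 4 probes under each normalization of the scanner intensities. Its oligospermic minus control difference at 1999 was between 2.36 and 2.49 under the 16 alternatives. That difference ranged from 1.26 to 2.27 at 432, from 1.59 to 2.76 at 832 and from 2.12 to 2.65 at 1201. Changes of filter, block, model or intensity trend cannot move it, since they use the same levels and equal groups. ABCG2 was selected on this contrast, so these ranges are a description and carry no test. With normexp, 2 of 4 probes kept a difference of at least 2. No ABCG2 probe passed in t(1;14) against control under any of the 16.

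With an intensity trend, 1 transporter probe (ABCA1 at 3070) passed in t(1;14) against control, and 4 other ABC genes fell instead of 2, as also with all 9 arrays in 1 model. With slide as a block 0 fell. In t(1;14) against oligospermic, 1 transporter probe passed with all 9 arrays in 1 model instead of 3. There, 1 other ABC gene fell instead of 2 with scaling by the 75th percentile, normexp, all 9 arrays in 1 model or an intensity trend. The cause was not tested. Leaving out 1 array gave 1 to 3 transporter probes in t(1;14) against oligospermic, with 3 to 4 other ABC genes that rose and 1 to 2 that fell. In t(1;14) against control it gave 1 to 3 that rose and 0 to 3 that fell. Fewer arrays also mean a weaker test.

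Replicate numbers did not pair the t(1;14) arrays with the others: the correlations were -0.287, -0.196 and 0.153 with control, and -0.426, -0.366 and 0.0965 with oligospermic. Arrays of the same slide did deviate together, with 0.360, 0.112 and 0.130 for control and 0.502, 0.322 and 0.333 for oligospermic. With the replicate block, 1 other ABC gene rose and 1 fell in t(1;14) against control, and in t(1;14) against oligospermic 1 transporter probe passed and 1 other ABC gene fell. In oligospermic against control, where the number equals the slide, 0 of the probes tested passed with the block. The 4 ABCG2 differences are the same with and without it by design, since each block holds 1 array of each group. ABCC2 is limited by signal near background.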

Other observations

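Against the oligospermic arrays, 8 of the 12 tested conjugation enzymes rose in t(1;14) and 0 fell, with a median difference of 0.71, where 28.5% of all probes rose and 23% fell. SULT2A1 was higher by 2.34 ± 0.18 (SE; adjusted p = 6.4e-05, limma), GSTO1 by 1.99 ± 0.13 and MGST1 by 1.57 ± 0.12. Of the 12 genes of xenobiotic sensing 4 rose and 3 fell, beside 51.6% of all probes that passed. NQO1, a quinone reductase named here after its values were seen, had the largest difference of the list and rose by 3.62 ± 0.15 (adjusted p = 1.2e-05, limma). NQO1 was not among the genes of this list that passed in t(1;14) against control. PPARG changed by -1.44 ± 0.11 with all 3 of its probes past the limit. ABCD2 changed by -1.70 ± 0.12 (adjusted p = 4.6e-05, limma). Its oligospermic arrays lay above the controls without overlap, as 8.14% of all probes did. That difference of 0.53 did not pass (adjusted p = 0.439, limma). Of the 21 sterol genes 8 rose and 2 fell, near the 51.6% of all probes that passed, with a median of 0.12 beside 0.14 for all probes. These values share their t(1;14) arrays with the comparison against control.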
